A study of Oryza sativa Japonica Group with 6 samples.

Results

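The wild-type leaf transcriptome of rice seedlings was described as the set of genes with a deposited level of 1 TPM or more in each of 3 wild-type libraries. TPM is a read count divided by transcript length and scaled to a total of 1000000 in each library, so levels of different genes can be set side by side. Of the 37863 genes in the table, 20212 (53.4%) met this rule, and they held 99.2%, 99.2% and 99.6% of all TPM in the libraries IM1, IM2 and IM3. The series comprised 6 polyA RNA-seq libraries, of which the other 3, from a line named for the transcription factor OsWRKY65, entered no value here. The 3 libraries used were labelled WT, with a wild-type genotype, and came from leaves of Oryza sativa Japonica Group seedlings at day 14. The seedlings were raised on MS medium at 28 °C with 16 h of light and 8 h of dark. No transgene, deletion or added agent was named for the WT samples. The columns carry the prefix IM, which the labels do not explain. They were taken as WT because the other columns are named for the OsWRKY65-2 line, and the libraries are named here by their columns, IM1, IM2 and IM3, without any order. Nothing in the labels says whether the 3 samples came from separate plants or pools, so every SD measures the spread between these 3 samples, which may be technical.

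A rice leaf is built around photosynthesis. Chloroplasts capture light with chlorophyll-binding antenna proteins and the photosystems, and fix CO2 with Rubisco, the carboxylase of the Calvin cycle, whose large subunit is encoded by the chloroplast genome and whose small subunit is encoded by the nucleus. Grass leaves grow from a basal zone of dividing cells, so a whole leaf also holds cells that make ribosomes, histones and cell walls, and an epidermis that makes wax and lipid transfer proteins. Jasmonate, a wound and defence hormone made from fatty acids by lipoxygenases, raises the expression of protease inhibitors and other defence proteins in many plants.

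The libraries held 22618996 (IM1), 29720852 (IM2) and 24838297 (IM3) read counts over all genes, with a median of 425, 562 and 407 counts per member. In the 3 libraries, 22606, 22424 and 21368 genes reached 1 TPM, and 2030 genes reached it in 1 library only and 1866 in 2. Another 9640 genes had 0 counts in all 3, where 3 counts, the limit that a count of 0 allows, would be 0.133, 0.101 and 0.121 CPM, which is the count scaled to the same total without division by length. The members with values nearest to the minimum were Os09g0545700, annotated as an auxin induced protein, at 1.96, 7.82 and 1.0004 TPM, and Os04g0275950, a conserved hypothetical protein, at 1.0004, 1.82 and 3.91 TPM. The nearest genes left out were Os07g0613800 at 3.07, 2.11 and 0.9997 TPM and Os08g0496400 at 1.52, 0.9993 and 1.21 TPM. The share of genes that were members ran from 45.3% on chromosome 11 to 60.4% on chromosome 3.

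Marker genes were read first to check the tissue label. The 3 Rubisco small subunit members summed to 9937, 9471 and 15208 TPM in IM1, IM2 and IM3, and the 16 light-harvesting members of 24 annotated genes to 21584, 17940.3 and 26597 TPM. Leaf mesophyll genes were among the most abundant in every library. Of 55 glutelin, prolamin and oleosin genes, which serve storage in the seed, 47 had 0 counts in all 3 libraries and 6 were members. Of 31 genes annotated as anther- or pollen-related, 18 had 0 counts and 10 were members. The root marker RCc3 (Os02g0662000) was at 0.281, 0 and 0 TPM, while a gene of the same annotation family, Os04g0554800, reached 21.4, 31.1 and 20.6 TPM. The meristem gene OSH1 (Os03g0727000) was at 0, 1.38 and 0 TPM, and 2 of 10 knotted-type homeobox genes were members. Genes of dividing cells were present: 11 of 12 cyclin A and B genes were members, with sums of 256, 255 and 204 TPM. The xylem cysteine protease Os05g0108600 stood at 56.1, 60.5 and 47.9 TPM, and 4 of 7 sucrose transporter genes were members. In bulk tissue, fewer cells of a type and less RNA per cell cannot be told apart.

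The transcriptome was concentrated in few genes. Only 68 members (0.336%) had a mean of 1000 TPM or more, and they held 23.8% ± 3.85 (SD, n = 3) of all transcripts. The 1480 members between 100 and 1000 TPM held 32.4%, the 11959 between 10 and 100 TPM held 39.5%, and the 6705 between 1 and 10 TPM held 3.58%. The single most abundant gene accounted for 5.02% ± 1.02 of TPM and the first 10 for 14.2% ± 3.01, at 13.04%, 11.96% and 17.6% in IM1, IM2 and IM3. The first 100 held 25.0%, 23.3% and 30.9%, and the first 1000 held 47.9%, 47.8% and 53.8%. IM3 was the most concentrated library by each of these measures: 745 genes made up 50% of its TPM, against 1158 in IM1 and 1163 in IM2. The top genes weigh less in read counts, which are not divided by length: the 10, 100 and 1000 genes took 9.77%, 19.2% and 40.5% of counts.

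**Figure D1:**
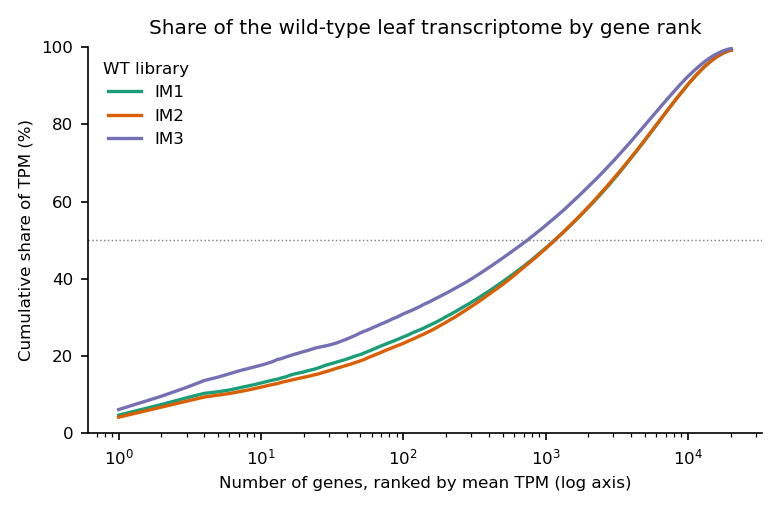
Cumulative share of TPM (%) against the number of genes, ranked by mean TPM over the 3 WT libraries (log axis), with a line for each library. The line of IM3 lies above those of IM1 and IM2, which run close together, and crosses the dotted 50% line furthest to the left.

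The top 3 genes were all annotated as the Rubisco large subunit, the catalytic chain of the enzyme. Os01g0791033 on chromosome 1 stood at 47178, 41882 and 61593 TPM (mean 50217 ± 10201 TPM, SD, n = 3). Os10g0356000 on chromosome 10 stood at 27504, 26026 and 34677 TPM (mean 29403 ± 4628 TPM), and Os12g0207600 on chromosome 12 at 17355, 15194 and 22734 TPM (mean 18428 ± 3883 TPM). IM3 was the highest and IM2 the lowest library for each of the 3. With Os05g0427800 and Os01g0899425, the 5 genes of this annotation summed to 93141, 84153 and 120479 TPM. Os01g0791033 held 50.7%, 49.8% and 51.1% of that sum, Os10g0356000 29.5%, 30.9% and 28.8%, and Os12g0207600 18.6%, 18.1% and 18.9%. The division between loci moved less than the total. In read counts Os01g0791033 held 568203, 672974 and 843481 and Os10g0356000 held 586439, 740367 and 840732, so the first led in IM3 only, where the values were close. All identifiers in the table name 1 of the 12 nuclear chromosomes, and transcripts of the chloroplast gene and of near-identical copies in the nuclear chromosomes cannot be told apart here.

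The same limit holds for the whole class of genes annotated as products that organelle genomes encode. Of 27 such genes, 21 were members, and they held 11.9% ± 2.05 of TPM (SD, n = 3), at 11.3%, 10.2% and 14.2%, or 7.93% of read counts. Its first 3 genes made up 82.2% of the class. The libraries were polyA RNA-seq, and how well organelle transcripts were recovered in each library was not tested. The photosystem II reaction centre protein D1 (Os04g0473150) stood at 5196, 4702 and 7217 TPM, and cytochrome b559 alpha (Os03g0659233), another photosystem II subunit, at 4184, 3709 and 4314 TPM. IM3 was highest for both. The mitochondrial products did not share that order. Cytochrome c oxidase subunit 2 (Os04g0343050), of the respiratory chain, stood at 2474, 1432 and 979 TPM, ATP synthase F0 subunit 9 (Os01g0899275) at 899.9, 536 and 485 TPM, and NADH dehydrogenase subunit 9 (Os12g0422971) at 224, 189.5 and 143 TPM. IM1 was the highest and IM3 the lowest for each of these 3. Others departed from that order: ATP synthase F0 subunit 6 (Os12g0424180) stood at 509.6, 644 and 379 TPM, highest in IM2, and NADH dehydrogenase subunit 2 (Os04g0309100) at 13.5, 9.42 and 11.3 TPM, lowest in IM2. Of the 7 members annotated as subunits of cytochrome c oxidase, ATP synthase F0 or NADH dehydrogenase, 6 were highest in IM1 and 6 lowest in IM3. Over all members, IM1 was highest for 40.6% and IM3 lowest for 53.98%. Ranks 4 and 5 in the whole transcriptome were held by Os12g0291100 at 11581, 11020.0 and 17749 TPM and Os11g0707000 at 4013, 4823 and 8893 TPM, both annotated as non-protein-coding transcripts only, and both were highest in IM3.

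Photosynthesis genes that are not of this type, grouped as light harvesting, photosystems with electron transport, and Rubisco with the Calvin cycle, comprised 125 of 154 annotated genes. They held 7.50% ± 1.61 of TPM (SD, n = 3), at 6.82%, 6.34% and 9.34%, and 5.28% of read counts. The median of their mean levels over the 3 libraries was 107 TPM, against 17.7 TPM for all members. Within IM1, IM2 and IM3 the median over all members was 18.5, 18.5 and 15.6 TPM. To compare libraries, each gene's log2(TPM + 1) was taken as a deviation from its own mean over the 3 libraries. The median deviation of all members was 0.08, 0.06 and -0.13 on this fixed-total scale, and class medians are given relative to it. As a background for counts of genes by library, IM1 was the highest library for 40.6% of all members in TPM, IM2 for 40.4% and IM3 for 19.0%, and IM3 was the lowest for 53.98%. In CPM with trimmed mean (TMM) scaling each library was highest for 30.9% to 34.6% of members and lowest for 30.9% to 34.8%. The photosynthesis class medians were -0.20, -0.14 and 0.35, and 102 of the 125 genes lay above the all-member median in IM3, 17 in IM1 and 34 in IM2.

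The antenna proteins that bind chlorophyll and pass light energy to the photosystems had the highest median of any class of 10 or more members, at 1378 TPM over 16 of 24 genes. Os09g0346500, annotated as clock-controlled, led with 3552, 3117 and 4510.0 TPM (mean 3726 ± 713 TPM), and Os01g0600900 followed with 3974, 2221 and 3076 TPM (mean 3091 ± 877 TPM). IM3 was highest for 15 of the 16 antenna genes, against 19.0% of all members. Os01g0600900 was the exception and peaked in IM1. Os03g0592500 (mean 2731 ± 523 TPM), the photosystem I antenna genes Os08g0435900 (mean 1956 ± 489 TPM) and Os06g0320500 (mean 1840.3 ± 365 TPM), and the minor antenna CP29 gene Os07g0558400 (mean 1543 ± 373 TPM) made up the rest of the antenna genes among the 30 most abundant. Their SDs on the log2 scale ran from 0.28 to 0.34.

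Photosystem and electron transport genes (75 members of 85 genes) held 2.83%, 2.73% and 3.88% of TPM. Ferredoxin1 (Os08g0104600), the soluble electron carrier after photosystem I, stood at 1915, 2006 and 2623 TPM, and oxygen-evolving complex protein 1 (Os01g0501800), which stabilises the water-splitting site, at 1717, 1618 and 2638 TPM. IM3 was highest for both. The genes annotated as the photosystem II 10 kDa polypeptide moved in opposite directions. Os08g0200300 stood at 2383, 2276 and 5549 TPM (SD 0.72 on the log2 scale) and Os07g0147500 at 1742, 2210.1 and 727 TPM (SD 0.84), so the first was highest and the second lowest in IM3. Whether reads were divided between genes of this shared annotation was not tested.

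Calvin cycle genes, Rubisco small subunits included, numbered 34 of 45 and held 1.83%, 1.81% and 2.80% of TPM. The small subunit genes, whose products complete the Rubisco holoenzyme, were unequal in level. Os12g0274700 stood at 4681, 4177 and 8804 TPM, Os12g0291400 at 4139.9, 4149 and 4939 TPM and Os12g0292400 at 1116, 1145 and 1465 TPM. IM3 stood apart for Os12g0274700 (SD 0.58), while Os12g0291400 differed less between libraries in TPM (SD 0.15). Relative to the all-member median, Os12g0291400 lay at -0.16, -0.14 and 0.30, so it too was highest in IM3. Chloroplast aldolase (Os11g0171300), which joins triose phosphates, was at 2863, 2522 and 4033 TPM, and the carbonic anhydrase Os01g0639900, which interconverts CO2 and bicarbonate, at 884, 781 and 2155 TPM. Both were highest in IM3, where carbonic anhydrase stood apart from the other libraries.

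IM3 was also the highest library by class median for other chloroplast functions. Chlorophyll and carotenoid synthesis (50 members of 58 genes) had class medians of -0.16, -0.06 and 0.26, and was led by the magnesium chelatase subunit ChlH (Os03g0323200), which commits protoporphyrin to chlorophyll, at 514, 503 and 719 TPM. Photorespiration, which recycles the product of Rubisco's oxygenase reaction (16 members of 19 genes), had medians of -0.18, -0.11 and 0.24, with glycolate oxidase (Os03g0786100) at 658, 678 and 1046 TPM. Plastid-type ribosomal proteins (51 members of 56 genes) had medians of -0.27, 0.12 and 0.20: IM1 was low. IM2 was the highest library for 29 of 51 genes in TPM, but in TMM-scaled CPM IM3 was, also for 29. Over all members, IM2 was highest for 40.4% in TPM and IM3 for 34.5% in TMM-scaled CPM. The plastid glutamine synthetase Os04g0659100, which fixes ammonium in the leaf, stood at 661, 756 and 1164 TPM and was highest in IM3. Together the plastid-related classes numbered 242 of 287 genes and held 9.36% ± 1.82 of TPM.

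Ribosomal proteins of the cytosol, or with no compartment named, formed the largest class by TPM with a defined function outside the chloroplast. Of 292 genes, 261 were members and held 4.58% ± 0.843 of TPM (SD, n = 3), at 4.15%, 5.55% and 4.04%, or 2.50% of read counts. IM2 was the highest library for 222 of the 261 genes, and 239 lay above the all-member median there, against 43 in IM1 and 108 in IM3. The most abundant member, annotated as ribosomal protein S7 (Os12g0524750), departed from this at 1201, 1086 and 567 TPM, highest in IM1 and lowest in IM3. The next, the large-subunit protein gene L36 (Os05g0459900), stood at 786, 1202 and 786 TPM, high in IM2 and level in the others. Histones, which package DNA, and proteins annotated only with the histone fold (53 members of 71 genes) had class medians of -0.14, 0.23 and -0.03. IM2 was highest for 34 of the 45 annotated as histones H1 to H4, against 40.4% of all members, and for 4 of the 8 histone-fold proteins. The histone H3 gene Os06g0130900 departed from the class, at 443, 435 and 453 TPM, while the H2A gene Os03g0279200 followed it, at 233, 411 and 315 TPM. Translation factors (143 members of 168 genes, 1.64% ± 0.152 of TPM) were led by Os11g0660500, annotated as a splicing variant of OsTCTPa. It stood at 1958, 1878 and 1379 TPM, lowest in IM3. Elongation factor 1-alpha Os03g0177400 followed at 1288, 1815 and 1448 TPM, highest in IM2.

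Beside these groups, a few single genes carried much of the leaf's RNA. The metallothionein Os01g0200700, of a family of cysteine-rich metal-binding proteins, ranked 8 with 4613, 3918 and 5468 TPM (mean 4666 ± 776 TPM) and made up 80.9% of the TPM of its 5-member class. A second metallothionein, Os05g0111300, was at 512, 1176 and 269 TPM and varied more (SD 1.07 against 0.24). A glycine-rich protein gene (Os03g0670700) ranked 14 with 3614, 3559 and 2972 TPM. Os03g0401300, annotated under sucrose synthase metabolism, ranked 18 with 2034, 2189 and 2510.2 TPM, and the annotated cellular chaperone Os11g0703900 ranked 21 with 2450.4, 1806 and 1701 TPM. The ASR protein gene Os11g0167800, of a family induced by abscisic acid, stress and ripening, was at 2250.4, 1505 and 1523 TPM. These last 2 genes were highest in IM1 and similar in IM2 and IM3. The aquaporins Os04g0559700 and Os02g0666200, which pass water or CO2 across the plasma membrane, reached means of 1023 ± 169 TPM and 1002 ± 129 TPM, and 8 other aquaporin members stood lower. Catalase (Os02g0115700), which removes hydrogen peroxide, was at 1505, 1259 and 967 TPM, lowest in IM3.

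**Figure D2:**
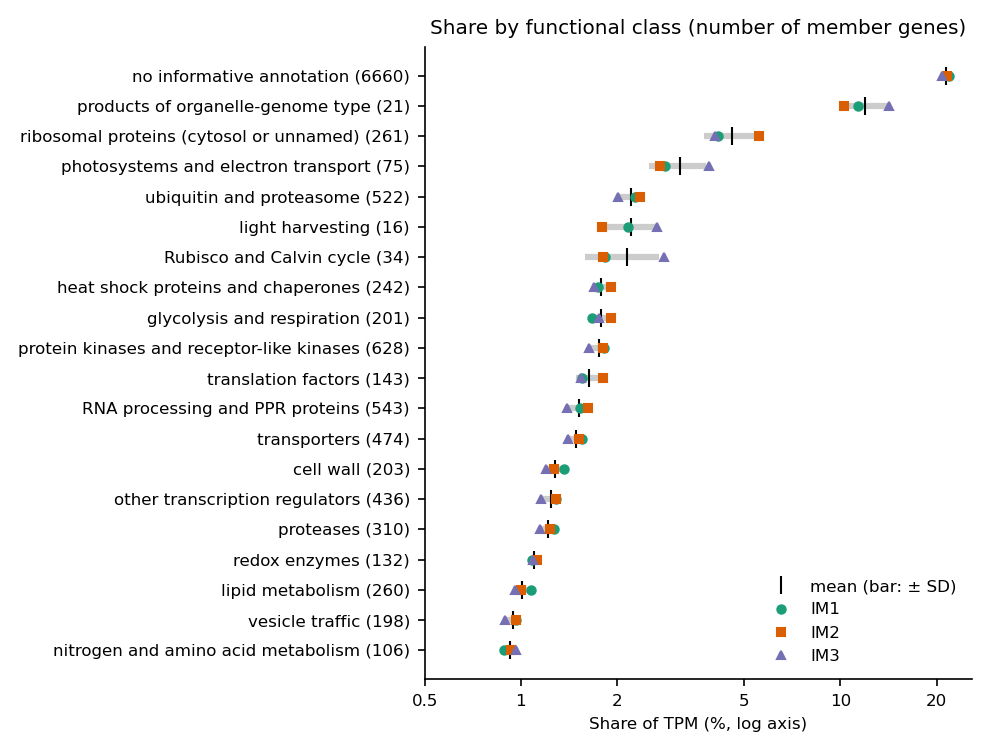
Share of TPM (%, log axis) of the functional classes with a defined function that hold the most, and of genes with no informative annotation. Points are the 3 WT libraries, black ticks the mean and grey bars the mean ± SD; numbers of members are in parentheses, and the mixed classes of other enzymes (6.70% ± 0.323) and other annotated genes (16.9% ± 0.866) are left out. IM3 lies to the right of the others for the photosynthesis classes and IM2 for the ribosomal proteins.

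Most classes held small shares. Genes with no informative annotation numbered 6660 of 17659 and held 21.4% ± 0.567 of TPM, and 37.7% of them were members, against 53.4% of all genes. The ubiquitin and proteasome class, which removes proteins, held 2.21% ± 0.176, heat shock proteins and chaperones 1.78% ± 0.113, glycolysis and respiration 1.78% ± 0.128, and protein kinases 1.76% ± 0.107 over 628 of 1074 genes. Cell wall genes held 1.28% ± 0.0856 and transporters 1.49% ± 0.081. Late embryogenesis abundant proteins and dehydrins, which accumulate in drying seeds, had the lowest share of members, at 7 of 35. All 7 were highest in IM2, against 40.4% of all members.

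Transcription factors and other transcription regulators made up many genes and little RNA. With the class of clock and light signalling (44 members of 57 genes, 0.222% of TPM) counted in, 900 of 1544 annotated genes (58.3%) were members. They held 2.52% ± 0.116 of TPM with a median level of 15.8 TPM. Classes went by annotation text, so the regulators include zinc finger genes such as Os11g0116200, annotated as C3HC4 type. The share of genes that were members was 42.2% for AP2/ERF factors, 54.1% for WRKY and for bHLH factors, 55.0% for MYB, 50.6% for NAC and 67.9% for bZIP factors. The leading AP2/ERF gene was Os01g0131600, annotated as similar to PTI6, at 608, 657 and 715 TPM. The leading NAC gene was Os03g0815100 at 146, 221 and 186 TPM, the leading bZIP gene Os12g0560900 at 148, 146 and 118 TPM, and the leading WRKY gene Os05g0343400 at 103, 165 and 229.7 TPM. Of these leading genes, WRKY Os05g0343400 varied most (SD 0.58 against 0.12 for Os01g0131600).

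Clock genes cycle through the day, and morning and evening genes peak at different hours. GIGANTEA (Os01g0182600), an evening component, stood at 556, 433 and 447 TPM, and the pseudo-response regulator PRR73 (Os03g0284100) at 288, 249 and 285 TPM. PRR37 (Os07g0695100) was at 86.9, 89.4 and 80.8 TPM, the TOC1-type regulator (Os02g0618200) at 48.0, 43.5 and 37.9 TPM and ELF3 (Os06g0142600) at 45.2, 41.7 and 45.1 TPM. Their SDs on the log2 scale were 0.20 or less. The morning gene LHY (Os08g0157600) stood at 64.0, 62.7 and 119.6 TPM, high in IM3, and LUX (Os01g0971800) at 25.5, 46.4 and 25.0 TPM, high in IM2. PRR95 (Os09g0532400) was at 151, 88.6 and 135 TPM, low in IM2. The hour of sampling is not given in the sources used here, and its part in these differences was not tested.

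Genes often used as references were steady in part. The alpha-tubulin gene Os03g0726100 stood at 929, 958 and 953 TPM (SD 0.02 on the log2 scale) and the actin gene Os11g0163100 at 511, 484 and 507 TPM (SD 0.04). Elongation factor 1-alpha Os03g0177400 had an SD of 0.25, close to the all-member median. All 13 actin genes and all 3 elongation factor 1-alpha genes were members. The tubulin and actin families were less steady than these single genes, with median SDs of 0.21 (16 members) and 0.22. The more abundant alpha-tubulin gene Os11g0247300 had an SD of 0.20. Median SDs were 0.24 for elongation factor 1-alpha, 0.29 for ubiquitin (7 members) and 0.27 for glyceraldehyde-3-phosphate dehydrogenase (5 members). The members with the smallest SD at a mean of 50 TPM or more were led by Os05g0556100, annotated as similar to SDL5A, at 103.3, 102.6 and 102.9 TPM, the transporter Os12g0623500 at 124, 125 and 124 TPM, and the cysteine synthase Os12g0625000, which makes cysteine from O-acetylserine, at 164, 164 and 162 TPM. These small SDs rest on the scale. In TMM-scaled CPM the SD was 0.14 for the tubulin gene, 0.14 for the actin gene, 0.12 for Os05g0556100, 0.12 for Os12g0623500 and 0.12 for Os12g0625000.

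Between libraries, the median SD of a member's log2(TPM + 1) was 0.28, and 90% of members lay at or below 0.60. Levels correlated across genes with Pearson's r of 0.953 (IM1 and IM2), 0.956 (IM1 and IM3) and 0.943 (IM2 and IM3), a description over 20212 genes that are not independent replicates. The spread was wider for rare transcripts, with a median SD of 0.37 between 1 and 10 TPM, 0.25 between 10 and 100, 0.22 between 100 and 1000, and 0.28 at 1000 TPM or more. The counting SD, computed from each member's mean count, had a median of 0.07. An SD of more than 2 times their own counting SD was seen in 16466 members (81.5%). The SD in TPM also takes in the median shifts of whole libraries, 0.08, 0.06 and -0.13 for IM1, IM2 and IM3, so this share is not gene-specific spread alone. As a second measure, edgeR gave the counts a biological coefficient of variation of 27.1% over all members. An SD above 1 was seen in 284 members (1.41%), of which 95 were set apart by a low value in IM3 and 88 by a high value in IM2.

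**Figure D3:**
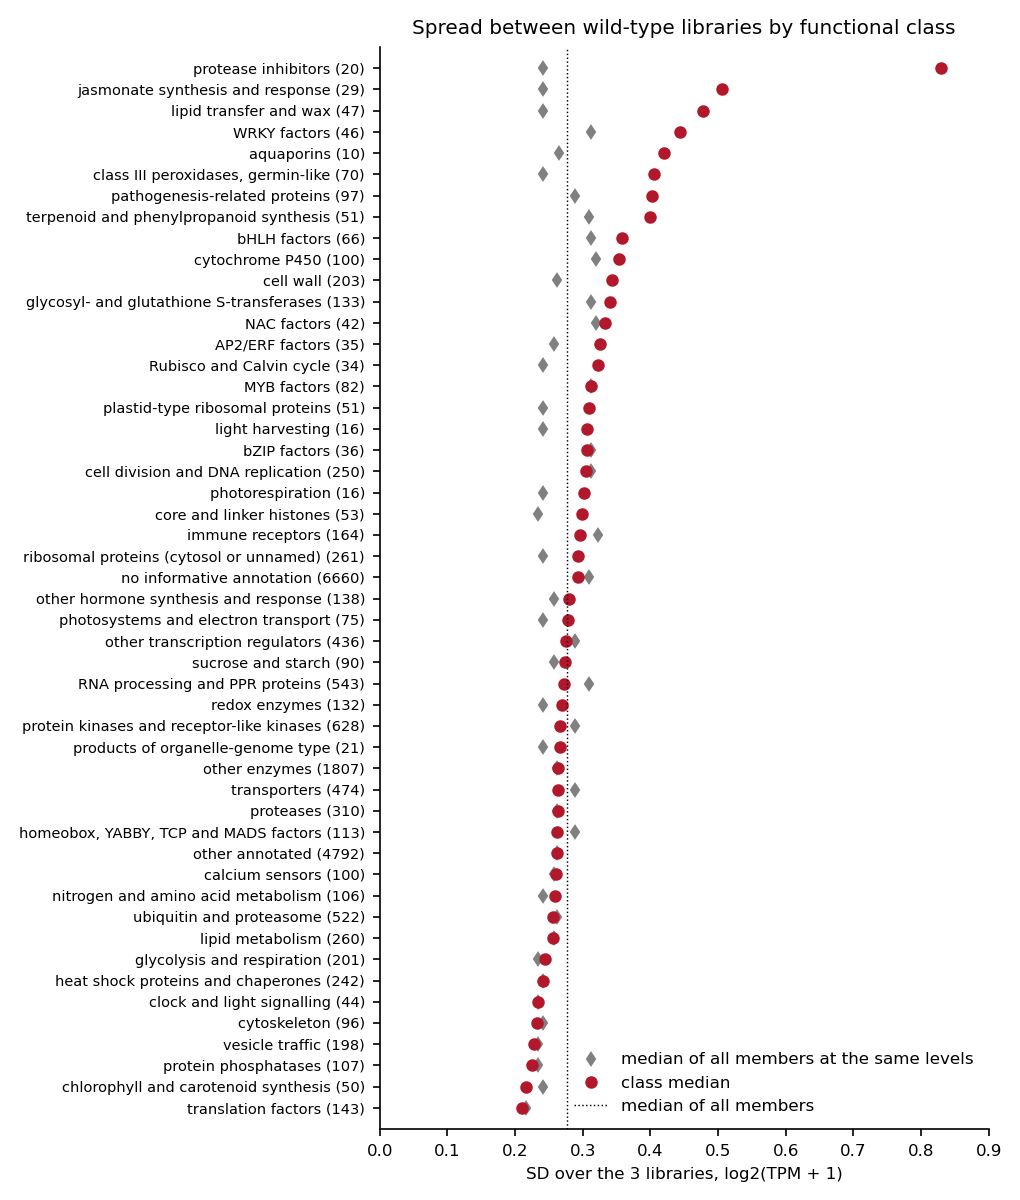
Median SD over the 3 WT libraries of log2(TPM + 1) for the 50 classes of 10 or more members (red points), the median of all members at the same expression levels (grey diamonds) and of all members (dotted line, 0.28). Protease inhibitors lie at 0.83 and translation factors at 0.21, the ends of the range.

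Among the 50 classes with 10 or more members, 6 had the largest median SD: protease inhibitors, jasmonate synthesis and response, lipid transfer and wax, WRKY factors, aquaporins, and class III peroxidases with germin-like proteins. At the other end stood translation factors (0.21), chlorophyll and carotenoid synthesis (0.22) and protein phosphatases (0.23). A class median over 3 libraries is a description and carries no test. The order below the first class depends on which genes, libraries and measure are used. By biological coefficient of variation, terpenoid and phenylpropanoid synthesis (47.1%) and pathogenesis-related proteins (45.0%) exceeded WRKY factors (38.4%), lipid transfer and wax (36.4%) and aquaporins (31.6%). Jasmonate genes stood at 59.5% and peroxidases with germin-like proteins at 45.7%. The SD as a ratio to that of members at the same level had a class median above 1.5 in 4 classes only. It was 1.36 for WRKY factors and 1.29 for aquaporins. With IM1 left out, lipid transfer and wax dropped from rank 3 to 19, and with a minimum of 10 TPM aquaporins dropped from rank 5 to 23. Protease inhibitors ranked 1 in the main analysis and in all 10 alternatives. Of these alternatives, the 1 by every matching class kept the main assignment of genes and so repeated the main ranking by construction. The others measure the same 3 libraries again.

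Protease inhibitors, which block the digestive enzymes of insects and microbes or the plant's own proteases, had 20 members of 51 genes, a median SD of 0.83 against 0.24 for members at the same levels, and a biological coefficient of variation of 80.3%. Class medians were 0.15, 0.21 and -0.66 relative to all members, and IM3 was the lowest library for 14 of 20 in TPM, where it was lowest for 53.98% of all members, and for 10 of 20 in TMM-scaled CPM, where it was lowest for 34.8%. Among them were the Bowman-Birk inhibitors, small serine protease inhibitors, whose 7 members summed to 1065, 660.1 and 557 TPM and were lowest in IM3 in 6 cases. Os01g0124650 stood at 337, 186 and 107 TPM, Os01g0124200 at 238, 156 and 59.98 TPM and Os01g0123900 at 77.5, 35.9 and 7.39 TPM. In each of these the libraries fell in the order IM1, IM2, IM3. Os03g0823400, also of this type, went the other way at 248, 213 and 342 TPM. The wound-induced inhibitor WIP1 (Os01g0132000) was at 273, 208 and 89.0 TPM and oryzacystatin-II (Os05g0494200), a cysteine protease inhibitor, at 25.9, 28.7 and 4.84 TPM, both lowest in IM3. A pair of chymotrypsin inhibitor genes with neighbouring identifiers departed in IM2 instead. Os01g0615100 stood at 1.55, 126 and 2.58 TPM (SD 3.12) and Os01g0615050 at 4.30, 198 and 6.91 TPM (SD 2.87). Os05g0409300, a cystatin, stood at 163, 114 and 132 TPM. Reads shared between Bowman-Birk genes of similar sequence cannot be told apart here.

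Jasmonate synthesis and response had 29 members of 51 genes and a median SD of 0.51 against 0.24 at the same levels. The repressors of the pathway, which carry JAZ, Tify or ZIM domains and are themselves induced by the hormone, had 9 members that summed to 338, 623 and 414 TPM, and 8 of 9 were highest in IM2. Over all members, IM2 was highest for 40.4%. Os03g0180900 stood at 2.83, 38.7 and 2.54 TPM (SD 1.98), Os10g0392400 at 16.0, 69.0 and 25.8 TPM, and Os03g0402800 at 61.9, 163 and 115 TPM. Those 3 were highest in IM2, whereas Os08g0428400 was level at 52.1, 52.2 and 50.2 TPM. The enzymes did not share 1 order. Allene oxide synthase Os03g0225900, which commits fatty acid hydroperoxides to jasmonate, was at 15.8, 36.0 and 11.2 TPM, and allene oxide cyclase (Os03g0438100), the next enzyme, at 65.0, 90.8 and 44.5 TPM. The 11 lipoxygenase members summed to 669, 352 and 299.9 TPM. They were classed by annotation text, and which of them act in jasmonate synthesis was not tested. Of these, Os12g0559200 stood at 325, 52.8 and 86.9 TPM, Os12g0559934 at 98.5, 13.7 and 26.9 TPM and Os03g0738600 at 29.8, 1.02 and 2.02 TPM, all high in IM1. The type-2 13-lipoxygenases Os04g0447100 at 9.89, 35.6 and 9.68 TPM and Os08g0508800 at 2.72, 14.1 and 8.81 TPM were high in IM2. With a minimum of 5 TPM in all libraries, the class median fell to 0.32.

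Lipid transfer and wax genes, which carry and build the waxy cuticle of the epidermis, had 47 members of 89 genes, a median SD of 0.48 and class medians of 0.32, -0.19 and -0.07. IM1 was the highest library for 38 of the 47 genes. Lipid transfer proteins, small secreted lipid-binding proteins, had 33 members that summed to 5122, 2855 and 3415 TPM, and 29 of them were highest in IM1. The most abundant were Os12g0114800 at 903, 496 and 858 TPM and Os11g0115100 at 809, 395 and 702 TPM, both low in IM2. Os12g0115500 stood at 330.2, 108 and 76.1 TPM (SD 1.10), high in IM1 alone. These genes lie at the duplicated ends of chromosomes 11 and 12, where reads of near-identical copies cannot be told apart. Ketoacyl-CoA synthases, which lengthen the fatty acids of wax, had 9 members with a lower median SD of 0.26, and 5 of 9 were highest in IM1, near the 40.6% of all members. Os02g0230300, annotated as an En/Spm-like transposon protein (protodermal factor 1), was outside this class and stood at 109, 9.44 and 117 TPM (SD 1.99), low in IM2.

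The deviation of whole classes had a direction in each library. In IM3 the photosynthesis classes lay above the all-member median by 0.43 (light harvesting) and 0.36 (photosystems), while protease inhibitors lay at -0.66 and pathogenesis-related proteins at -0.18. In IM2 ribosomal proteins lay at 0.23, histones with histone-fold proteins at 0.23 and jasmonate genes at 0.15, with light harvesting at -0.30. In IM1 lipid transfer and wax lay at 0.32 and plastid-type ribosomal proteins at -0.27. The signs of all 35 class deviations above 0.1 in size, over the 3 libraries, were the same in TMM-scaled CPM. Both units come from the same counts, and centring on gene means and library medians removes gene length and library scale. The match was thus largely built in and does not test the effect of scaling. The fixed total of TPM links these values, since a library with more transcripts of a class has fewer of the rest. In depth, IM2 had the most counts, and IM1, the shallowest, had the most genes with a count (27129, against 24787 in IM2 and 24091 in IM3). The part of depth in these differences was not tested.

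**Figure D4:**
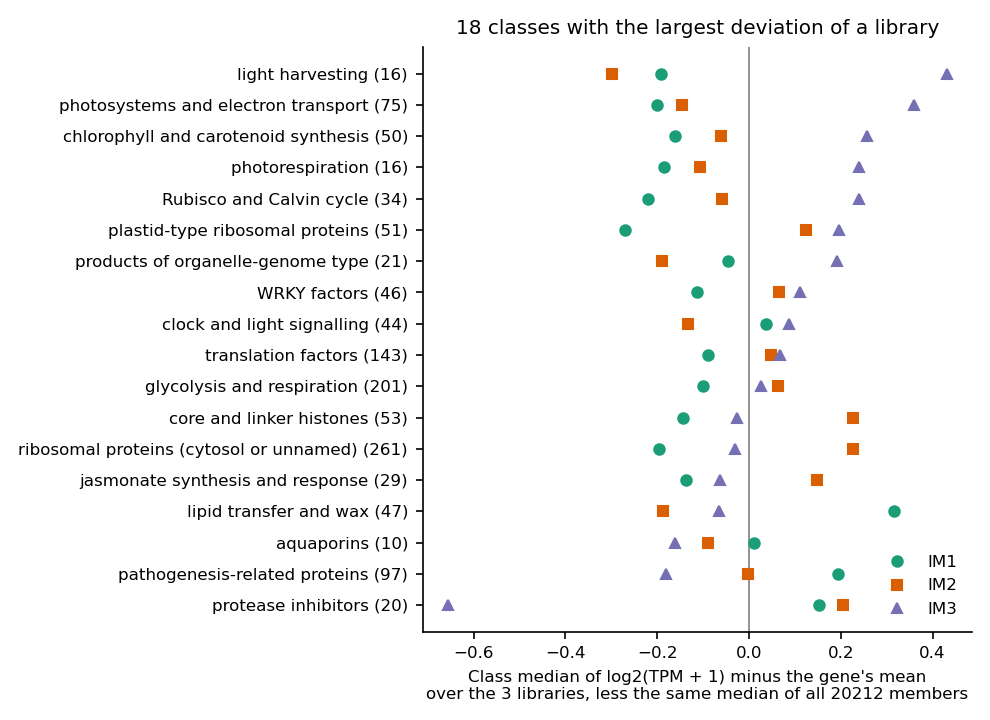
Median deviation of each WT library (points) from the mean of the 3 libraries in log2(TPM + 1), less the same median of all 20212 members, for the 18 classes with the largest deviation; numbers of members are in parentheses. IM3 stands at 0.43 for light harvesting and at -0.66 for protease inhibitors, IM2 at 0.23 for ribosomal proteins and IM1 at 0.32 for lipid transfer and wax.

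WRKY factors, which bind W-box promoter elements and act in defence and stress responses, had 46 members of 85 genes, a median SD of 0.44 against 0.31 at the same levels, and a summed share of 0.0731%, 0.0999% and 0.102%. Os02g0181300, annotated for the defence response, stood at 46.8, 128 and 108 TPM, Os05g0537100 (WRKY 10) at 10.7, 33.2 and 43.0 TPM, and Os05g0183100, annotated for blast resistance, at 21.2, 27.9 and 54.6 TPM. IM1 was lowest for these 3, as it was for the leading gene Os05g0343400. Others moved otherwise, such as WRKY 68 (Os04g0605100) at 25.4, 21.6 and 10.3 TPM, lowest in IM3, and the gene similar to WRKY 72 (Os11g0490900) at 4.31, 16.8 and 6.12 TPM, highest in IM2. With a minimum of 10 TPM the class median was 0.33.

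Aquaporins numbered 10 members of 24 genes with a median SD of 0.42 against 0.26 at the same levels. The 2 most abundant members were steadier than the class median: the SD was 0.24 for Os04g0559700 and 0.18 for Os02g0666200. The tonoplast intrinsic protein gene Os05g0231700, whose product sits in the vacuole membrane, stood at 255, 138 and 118 TPM. It varied more (SD 0.58), though it too lay above the median level of the class, 82.2 TPM. Class III peroxidases, secreted enzymes of cell wall and defence chemistry, and germin-like proteins together had 70 members. Their median SD was 0.41 against 0.24 at the same levels. They had no common direction, at class medians of 0.00, -0.02 and -0.07. The peroxidase Os01g0963000 stood at 4.56, 79.0 and 2.68 TPM and Os02g0240300 at 19.9, 16.5 and 143 TPM, so the first was high in IM2 and the second in IM3. Of 11 germin-like genes, 8 were highest in IM2, against 40.4% of all members. Os08g0231400 was at 90.5, 346 and 109 TPM, whereas the most abundant, Os08g0460000, was at 1472, 1184 and 1716 TPM.

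Pathogenesis-related proteins, the chitinases, glucanases and ribonuclease-like proteins that accumulate on infection, had 97 members of 191 genes, a median SD of 0.40 against 0.29 at the same levels, and class medians of 0.19, 0.00 and -0.18. IM3 was lowest for 62 of the 97 in TPM, near the 53.98% of all members, and for 52 in TMM-scaled CPM, against 34.8%. The 16 members annotated as chitinases, a family of enzymes that cut fungal cell walls, summed to 909, 879 and 496 TPM. None of the 16 was highest in IM3 in TPM or in TMM-scaled CPM, against 19.0% and 34.5% of all members. Chitinase III (Os05g0247100), annotated also as a xylanase inhibitor, stood at 486, 431 and 231 TPM. The member with the largest SD was PBZ1 (Os12g0555500), a probenazole-inducible 17 kDa ribonuclease of the PR10 family, at 111, 156 and 1.44 TPM (SD 3.34). Genes next to it in the identifiers did not meet the rule, since IM3 listed both at 0. Os12g0555000, annotated as a root-specific PR protein, was at 65.8, 163 and 0 TPM, and Os12g0555200, similar to a probenazole-inducible protein, at 11.6, 131 and 0 TPM. The 3 genes are of 1 family, so reads shared among them cannot be told apart.

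The minimum in every library keeps such genes out of the set and caps the spread of those in it. Of genes with 10 TPM or more in the other 2 libraries, 1 was under 1 TPM in IM1, 2 in IM2 and 12 in IM3. The 12 included, besides the PBZ1 relatives, a pathogen-related protein gene (Os10g0569400) at 34.6, 14.2 and 0 TPM, the class II chitinase gene Os10g0542900 at 27.8, 10.4 and 0.888 TPM, the Bowman-Birk gene Os01g0124000 at 21.1, 11.7 and 0.481 TPM and the phenylalanine ammonia-lyase gene Os02g0626600, whose enzyme opens the phenylpropanoid pathway, at 11.3, 17.1 and 0.629 TPM. In the opposite direction, 14 genes reached 10 TPM in IM1 only, 13 in IM2 only and 1 in IM3 only, with both other libraries under 1 TPM.

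Single genes with the widest spread belonged to the same classes and to others. The 10 widest of those with a mean of 10 TPM or more and an informative annotation included PBZ1, the pair of chymotrypsin inhibitors, the peroxidase Os01g0963000, the lipoxygenase Os03g0738600, the JAZ gene Os03g0180900 and the protodermal factor Os02g0230300. The caryophyllene synthase gene Os08g0139700, whose enzyme makes a volatile sesquiterpene, stood at 2.09, 1.92 and 36.8 TPM (SD 2.11). The leucine-rich repeat gene Os01g0162200 stood at 3.19, 3.85 and 51.6 TPM (SD 2.05). Both were high in IM3 only. The glutathione S-transferase gene Os10g0527800, annotated for leaf senescence, stood at 5.10, 66.2 and 7.06 TPM (SD 1.89) and was high in IM2 only. For 8 of these 10 genes, a single library stood apart as high, and for 2, PBZ1 and the protodermal factor, a single library stood apart as low.

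**Figure D5:**
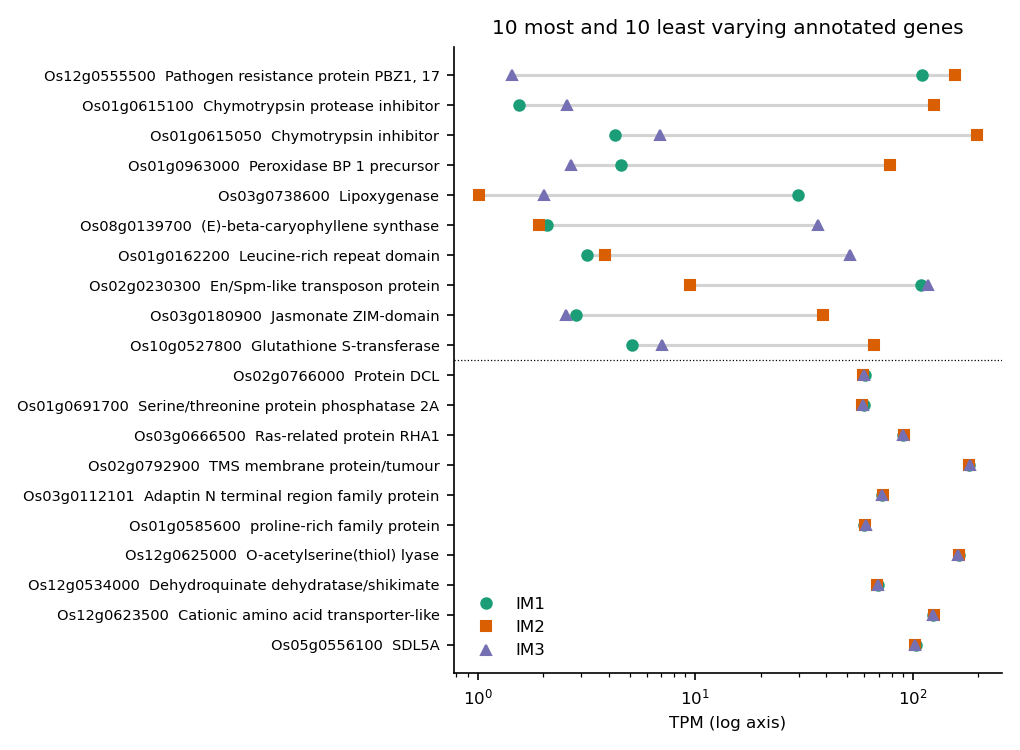
TPM (log axis) in each WT library (points) of the 10 annotated members with the largest SD of log2(TPM + 1) at a mean of 10 TPM or more, above the dotted line, and the 10 with the smallest SD at a mean of 50 TPM or more, below it. Each of the upper genes has a single library far from the other 2, and the points of each lower gene overlap.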

How the data were processed

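PolyA RNA-seq of seedling leaves was analysed from a table of 37863 rice genes. The submitters' processing notes name StringTie 2.1.3b, HISAT2 2.1.0, Trimmomatic, bcl2fastq 2.20.0 and the build IRGSP-1.0. For settings and use of strand, nothing was given in the sources used here. The authors deposited an estimated count of reads per gene and library as a whole number, estimated counts being what StringTie yields, together with FPKM (scaled by length and depth) and TPM. Reads of near-identical copies, overlapping genes and antisense partners cannot be told apart in these values.

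Members were the genes with TPM of 1 or more in all 3 WT columns. Each gene was put into 1 of 52 classes by ordered text patterns on the deposited annotation, and the first match counted. The members, classes and gene lists were chosen with earlier results of these data known, and the patterns were revised after the annotations were read. A class share is the TPM of its members over that of all genes. The spread of a gene is the SD of log2(TPM + 1) over the 3 libraries, with a pseudocount of 1. A class's spread is the median over its members, set beside that of members in the same of 20 level bins. With 1 group, no test was made and no p-value is given. Counting SDs assume Poisson counts, so they and the limit of 3 counts cover counting error only. The biological coefficient of variation came from edgeR 4.0.16 (R 4.3.3) with TMM factors (1.04, 1.04 and 0.920) and an intercept-only design on the deposited counts. A common dispersion per class was used in place of the planned estimate per gene, which shrank widely spread classes in simulated data. The measures were tested on simulated counts. Values were computed with python 3.11.15, pandas 2.3.3 and numpy 2.4.6.

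Named genes were the 30 highest by mean TPM, the 2 highest of each class, the 10 with the largest SD at a mean of 10 TPM or more, the 2 with the largest SD in each of the 6 most variable classes, the 10 with the smallest SD at 50 TPM or more, the 4 nearest to the minimum, and marker, clock and reference genes. Other genes of the variable classes, of the organelle type and of those under 1 TPM in a single library were chosen after their values were seen. Alternatives covered the minimum, the unit, the class assignment, the pseudocount, the scaling and each library left out. Leaving out genes of organelle-genome type, and reading class directions and reference genes in TMM-scaled CPM (prior count 1), were added after seeing the data. The OsWRKY65-2 libraries were not analysed here.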

Additional observations from a re-analysis of the deposited data

How the results depend on the processing

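No paired analysis was possible because the results come from 1 group and from no test. For 15 results, alternative values were set against a spread: 74 moved by less than it and 49 by more. For shares of transcripts that spread was the SD between libraries, and shares of FPKM equal those of TPM by definition. For median SDs and the biological coefficient of variation it was the SD of the 3 leave-one-out values. That SD was only 0.0018 for peroxidases and germin-like proteins, so nearly any change there counted as moved. The number of genes in the set follows the rule: from 20212 it went to 15205 with a minimum of 5 TPM and to 22400 with a mean of 1 TPM or more, and with a library left out it was 20476 to 21323. In read counts the share of nuclear photosynthesis was 5.28%, of organelle-genome type 7.93%, of cytosolic ribosomal proteins 2.50% and of genes without informative annotation 22.9%, and the top 10, 100 and 1000 genes held 9.77%, 19.2% and 40.5%. With every matching class counted, nuclear photosynthesis took 18.05%, since organelle-type genes then count in it too. Without genes of organelle-genome type in the total, uninformative genes held 24.3%.

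The median SD of all members was 0.24 with a minimum of 5 TPM and 0.23 with 10 TPM. With a minimum of 5 and of 10 TPM, it was 0.32 and 0.32 for jasmonate genes, 0.41 and 0.39 for lipid transfer and wax, 0.39 and 0.33 for WRKY factors, 0.31 and 0.24 for aquaporins, and 0.32 and 0.32 for peroxidases and germin-like proteins, and at 10 TPM it was 0.61 for protease inhibitors. With a pseudocount of 0.1 it was 0.55 for jasmonate genes, 0.53 for WRKY factors and 0.41 for peroxidases and germin-like proteins. From the coefficient of variation divided by ln 2 it was 0.57, 0.49 and 0.40 for these 3 classes. Peroxidases and germin-like proteins were at 0.39 both with TMM-scaled CPM and without genes of organelle-genome type.

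With a library left out, an SD over 2 values has a smaller median by construction. The range was 0.20 to 0.25 for all members, 0.43 to 0.70 for protease inhibitors, 0.32 to 0.41 for jasmonate genes, 0.28 to 0.41 for lipid transfer and wax, 0.27 to 0.35 for WRKY factors, 0.28 to 0.38 for aquaporins, and 0.32 to 0.32 for peroxidases and germin-like proteins. The lowest value for lipid transfer and wax was the one without IM1. The biological coefficient of variation ranged from 24.8% to 29.2%, and was 29.5% under edgeR's own count filter. Of 1174 alternative values for the 148 named genes, 1007 stayed within the spread set for them and 167 moved. This tally says little about robustness. For a gene's level, leaving out a library cannot move a mean of 3 values by as much as their SD. For a gene's SD, the spread was the SD of the 3 leave-one-out values. Leaving out IM1, IM2 or IM3 gave 29, 33 and 65 of the moved values. Depth limits the rarest members: counting error is a larger part of the SD between 1 and 10 TPM, where the median count was 125.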
